A study of Mus musculus with 4 samples.

Results

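A set of 10 genes of the secretory programme of gland epithelium was followed in gastric corpus mucosa with and without Muc6, and 1 of the 10, the disulfide isomerase gene Agr2, was higher in both knockout libraries. The set holds Agr2, Cxcl17, Mucl3, Spdef, Ern2, Creb3l1, Creb3l4, Xbp1, Bhlha15 and Foxa3. They were chosen by name, as markers of mucous neck cells or as transcription and endoplasmic reticulum (ER) factors of secretory cells, and were found by symbol among the 34866 rows of the deposited table. All 10 are protein-coding, were in the table and passed the filter on low counts, which left 14067 genes for testing. The other 9 genes overlapped between the genotypes, whereas 50.1% of all genes tested did not overlap. Of the 10, 8 were higher in knockout 2 than in knockout 1, against 50.9% of all genes tested.

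The mice were of genotype Muc6 +/+ (wild type) or Muc6 -/- (knockout), with 2 libraries each of mucosa from the corpus, the acid-secreting body of the stomach. Strain, age, treatment and the design of the knockout allele were not given in the sources used here. Nor do the sources used here say whether the 2 libraries of a genotype are 2 animals, so p-values reflect only how far these samples vary, and that variation may be technical. The study set out to relate Muc6 to gastric carcinogenesis.

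Mucus-making cells load their ER with very large proteins. In such cells the sensor IRE1 cuts the Xbp1 messenger RNA, and the protein made from the spliced form switches on folding enzymes and the machinery that moves proteins into the ER. Mucous epithelia carry a second sensor, IRE1 beta, encoded by Ern2, and the isomerase AGR2, which mucins need to fold. In the corpus, mucous neck cells mature into zymogen-making chief cells as they move to the gland base, and Bhlha15, also called Mist1, is a factor of the mature chief cell. SPDEF and FOXA3 are factors of goblet and other mucous cells.

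Total counts were between 20327745 and 27946423 a library. Muc6 was at 345 and 313 CPM (counts per 1000000, on library sizes scaled with TMM factors) in wild type 1 and 2 and at 0 and 0.413 CPM in knockout 1 and 2. Parietal and chief cell markers were present in every library. Their summed levels were 19182 and 18201 CPM in wild type against 2043 and 6785 CPM in knockout for 10 parietal genes, and 97110 and 211904 CPM against 2541 and 108625 CPM for 8 chief cell genes. Knockout 1 stood apart in some antral genes, with the hormone gene Gast at 9.77 CPM and the antral factor gene Nkx6-3 at 122 CPM. In the other libraries Gast was at most at 0.0403 CPM and Nkx6-3 at most at 0.454 CPM. Of 8 antral and duodenal genes tested, 5 were higher and 2, Apoa1 and Apoa4, lower without overlap. Over all genes tested the shares were 26.3% and 23.8%. Apoa1 measured 1606 and 1384 CPM in wild type versus 59.4 and 468 CPM in knockout. Sst was lowest in knockout 1, at 20.7 CPM. Squamous genes summed to 157 CPM in knockout 1, 13.3 CPM in knockout 2 and 1.09 and 0.781 CPM in wild type. In knockout 1 the sum came mostly from the keratin genes Krt13, at 117 CPM, and Krt4, at 26 CPM. Of the 10 squamous genes, 3 were at 0 in all libraries. Stromal and muscle genes were high in the libraries numbered 2 (1630 and 1519 CPM summed over 8 genes) and low in those numbered 1 (215 and 281 CPM). The 4 Y-linked genes measured reached a sum of 136 and 121 CPM in wild type but only 1.43 and 2.44 CPM in knockout. For every gene reported here, Agr2 and the ER genes included, a difference by genotype cannot be told apart from a difference by sex. In bulk tissue, fewer cells of a type and less RNA per cell cannot be told apart either.

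Promoter sequences are shown for Agr2, because it alone was higher in both knockout libraries, and for Bhlha15. The order of libraries for Bhlha15 was that of the chief cell genes Gif, Pgc and Chia1. Sequences are also shown for Spdef, which split the knockout libraries, and for Mucl3, the most abundant of the genes. They are from RefSeq (GRCm38.p6), which held a window for 7 of the 10 genes, and each runs from 250 bases before to 50 bases after the start site. This start site lies 18 bases from the gene start in GENCODE M21, the source of gene positions below, for Agr2 and 4 bases for Spdef. The last 25 bases of the Agr2 window were in no GENCODE transcript. Capitals mark ACGT, the core letters bound by bZIP factors such as XBP1 and the CREB3L proteins, and CCACG on either strand, a half-site of the ER stress element. The windows lie at chr12:35992675-35992974 (plus strand), chr5:144190036-144190335 (plus strand), chr17:27728902-27729201 (minus strand) and chr17:35643646-35643945 (minus strand).
Agr2: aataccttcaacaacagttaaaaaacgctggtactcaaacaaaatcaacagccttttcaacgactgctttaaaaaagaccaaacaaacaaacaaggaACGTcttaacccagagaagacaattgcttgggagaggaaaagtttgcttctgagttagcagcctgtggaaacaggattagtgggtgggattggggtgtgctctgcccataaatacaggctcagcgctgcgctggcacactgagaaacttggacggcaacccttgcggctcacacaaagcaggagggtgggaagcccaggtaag
Bhlha15: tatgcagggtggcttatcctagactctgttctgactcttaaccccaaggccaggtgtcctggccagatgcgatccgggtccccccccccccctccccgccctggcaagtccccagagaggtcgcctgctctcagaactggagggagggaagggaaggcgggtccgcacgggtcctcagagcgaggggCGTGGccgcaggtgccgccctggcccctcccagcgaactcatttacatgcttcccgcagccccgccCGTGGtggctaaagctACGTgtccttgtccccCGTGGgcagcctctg
Spdef: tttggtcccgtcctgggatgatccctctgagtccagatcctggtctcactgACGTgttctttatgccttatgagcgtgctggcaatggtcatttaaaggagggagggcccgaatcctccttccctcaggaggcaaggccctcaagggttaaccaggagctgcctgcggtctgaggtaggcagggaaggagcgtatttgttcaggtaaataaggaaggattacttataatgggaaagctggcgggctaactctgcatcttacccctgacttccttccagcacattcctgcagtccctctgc
Mucl3: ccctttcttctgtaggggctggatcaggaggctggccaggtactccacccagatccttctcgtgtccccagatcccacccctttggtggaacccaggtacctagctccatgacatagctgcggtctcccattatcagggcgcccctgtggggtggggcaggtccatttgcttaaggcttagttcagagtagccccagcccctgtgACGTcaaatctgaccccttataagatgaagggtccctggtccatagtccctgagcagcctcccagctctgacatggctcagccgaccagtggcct
ACGT was in the windows of 5 of the 7 genes (Agr2, Bhlha15, Mucl3, Spdef and Xbp1), against 30.9% of all 32851 RefSeq windows, and CCACG in 2 of 7 (Bhlha15 and Foxa3), against 32.8%. The ACGT of Mucl3, which begins 45 bases before the start site, lies inside the cyclic AMP response element TGACGTCA, which 1.79% of windows hold on either strand. The Bhlha15 window holds CCACG 3 times on its minus strand, beginning at positions -63, 4 and 36 (the start site being 1), and ACGT at position 20. CCAAT was found in 3 of 7 windows (37.4% of all) and the E-box CANNTG, the kind of site that MIST1 binds, in 5 of 7 (72.3% of all). These are letter matches only.

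Over all genes, edgeR's quasi-likelihood test called 0 of 14067 at an adjusted p below 0.05 (0%), with 15.9% at an unadjusted p below 0.05, and DESeq2 called 7.42%. Of the 10 genes, edgeR called 0, 1 was at an unadjusted p below 0.05, and DESeq2 called 1, which was higher (4.06% of all genes were called higher by DESeq2). The genotypes did not overlap for 1 of 10, against 50.1% of all genes tested. The median log2 fold change of the 10 genes was 0.05 and that of all genes tested -0.0017.

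**Figure D1:**
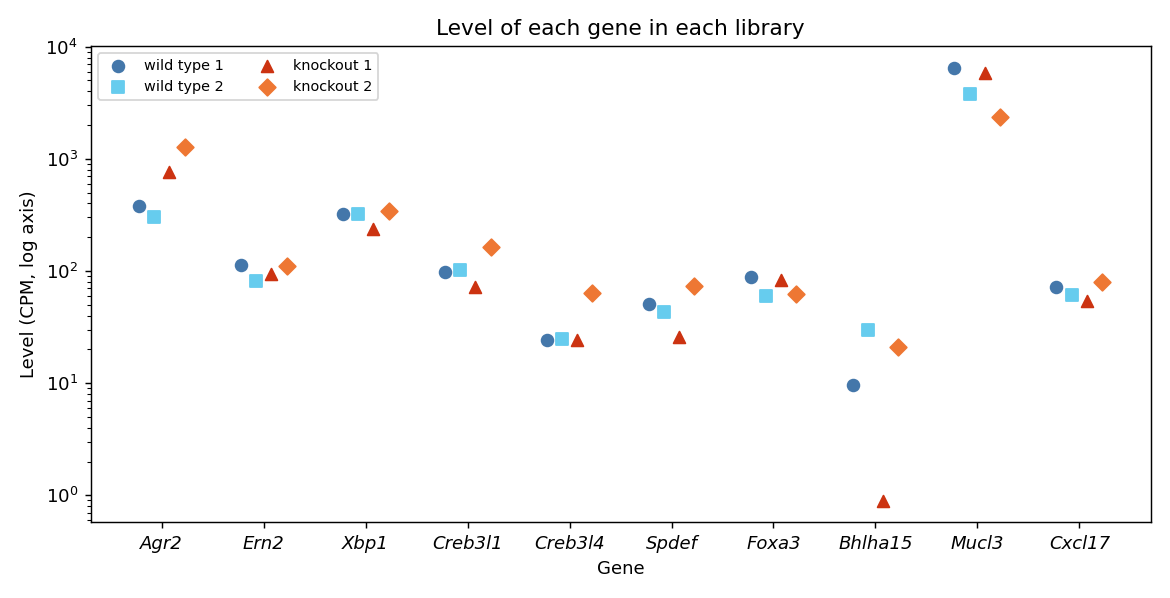
Level of the 10 genes in CPM (vertical log axis) in each of the 4 libraries, 1 point a library. Only for Agr2 do both knockout points, at 757 and 1280 CPM, lie above both wild-type points, at 379 and 306 CPM.

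Agr2 (ENSMUSG00000020581.11, plus strand of chromosome 12 at 35992907 to 36004087, mm10) encodes an ER-resident protein of the disulfide isomerase family. It measured 379 and 306 CPM in wild type 1 and 2 versus 757 and 1280 CPM in knockout 1 and 2. Both knockout libraries thus lay above both wild-type libraries, and knockout 2 was the highest. The means were 343 ± 52.1 CPM and 1019 ± 370 CPM (SD, n = 2 per group), a 2.97-fold difference. The fitted log2 fold change was 1.57 ± 0.35 (SE), and the adjusted p was 0.229 under edgeR's quasi-likelihood model but 2.3e-04 under DESeq2. Without knockout 1, the library with high Gast and Nkx6-3, the log2 fold change was 1.86 (adjusted p = 0.151 by edgeR), and without knockout 2 it was 1.09 (adjusted p = 0.0862 by edgeR). It was 1.74 without wild type 1 (adjusted p = 0.738 by edgeR) and 1.42 without wild type 2 (adjusted p = 0.728 by edgeR). In knockout 2, where Agr2 was highest, Nkx6-3 was at 0.454 CPM and Gast at 0, but the antral and duodenal factor gene Pdx1 was at 2.52 CPM and the intestinal phosphatase gene Alpi at 153 CPM, while in wild type Pdx1 was at most at 0.282 CPM and Alpi at 5 CPM. Apoa1 and Apoa4 of the antral and duodenal list were lower in knockout 2 than in wild type, at 468 and 33.1 CPM. The part of antral and intestinal transcripts in the level of Agr2 was not tested. Agr3, the nearest relative of Agr2, was at 0 in both wild-type libraries and at 0.0448 and 0.702 CPM in knockout.

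The ER stress sensor and the factor it activates did not follow Agr2. Ern2 (ENSMUSG00000030866.8, minus strand of chromosome 7 at 122169893 to 122186207), the IRE1 beta gene, measured 113 and 81.3 CPM in the wild-type libraries versus 94.5 and 110 CPM in the knockouts. Both knockout values fell inside the wild-type range, and the log2 fold change was 0.08 ± 0.22 (SE, with n = 2 a group and an edgeR adjusted p = 0.911). Ern1, which encodes the widely expressed sensor IRE1 alpha, had 46.2 and 42.2 CPM versus 38.5 and 39.2 CPM (-0.19 ± 0.12, SE). Per kilobase of exon, the level of Ern2 was 6.72 and 5.30 times that of Ern1 in wild type and 6.76 and 7.72 times in knockout.

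Xbp1 (ENSMUSG00000020484.18, plus strand of chromosome 11 at 5520659 to 5525893) measured 324 and 325 CPM in the wild-type libraries versus 236 and 342 CPM in the knockouts. Knockout 1 was below and knockout 2 above both wild-type libraries, so that the log2 fold change was -0.17 ± 0.25 (SE, with n = 2 a group and an edgeR adjusted p = 0.800). Without knockout 1 it was 0.03, and without knockout 2 it was -0.52. Counts per gene do not separate the spliced from the unspliced Xbp1 message. Within each library the level of Agr2 per kilobase was 2.95 and 2.36 times that of Xbp1 in wild type and 8.09 and 9.43 times in knockout, with no overlap of the genotypes.

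Whereas Xbp1 overlapped between the genotypes, 17 of 24 genes known as its targets or as parts of the ER entry machinery were higher in knockout without overlap and 3 were lower, against 26.3% and 23.8% of all genes tested. Their median log2 fold change was 0.27, and edgeR called none. DESeq2 called 4 higher and 1 lower, the lower one being Edem1 (3.36% of all genes were called lower by DESeq2). Taken alone against both wild-type libraries, knockout 1 had 18 of the 24 higher and knockout 2 had 19, while over all 14067 genes tested the counts were 5767 and 5101. The disulfide isomerase gene Pdia6 measured 177 and 173 CPM in the wild-type libraries versus 351 and 294 CPM in the knockouts, a log2 fold change of 0.88 ± 0.19 (SE). Sdf2l1, an ER chaperone cofactor gene, had 25.9 and 22.7 CPM versus 54.3 and 42.1 CPM, and Ostc, an oligosaccharyltransferase subunit gene, had 57.5 and 47.4 CPM versus 100.2 and 90.4 CPM. Knockout 2 minus knockout 1 was -0.25 log2 units for Pdia6, -0.37 for Sdf2l1 and -0.15 for Ostc. Wild type 2 minus wild type 1 was -0.03, -0.19 and -0.28. The median size of these gaps over all genes tested was 0.33 in knockout and 0.24 in wild type. Edem1, which sends misfolded glycoproteins to degradation, went the other way, from 128 and 122 CPM to 78.6 and 89.5 CPM. Dnajb9, an ER co-chaperone gene and classical Xbp1 target, overlapped, at 30 and 34.7 CPM versus 34.6 and 36.9 CPM.

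Among 16 folding enzymes and chaperones, 10 were higher without overlap and 1 was lower, against 26.3% and 23.8% of all genes tested. The isomerase gene Pdia5 measured 13.1 and 10.9 CPM in the wild-type libraries versus 42.6 and 40 CPM in the knockouts (log2 fold change 1.78 ± 0.16, SE, with n = 2 a group and an edgeR adjusted p = 0.159, DESeq2 adjusted p = 1.5e-09). Pdia4 was at 82.5 CPM in both wild-type libraries and at 185 and 160 CPM in knockout (edgeR adjusted p = 0.209). The lower gene was Txndc16, a thioredoxin-domain gene, at 17 and 18.2 CPM versus 8.07 and 11.5 CPM. The median log2 fold change of the 16 was 0.29. Taken alone against both wild-type libraries, knockout 1 had 10 of the 16 higher and knockout 2 had 12 (5767 and 5101 of all 14067 genes tested).

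**Figure D2:**
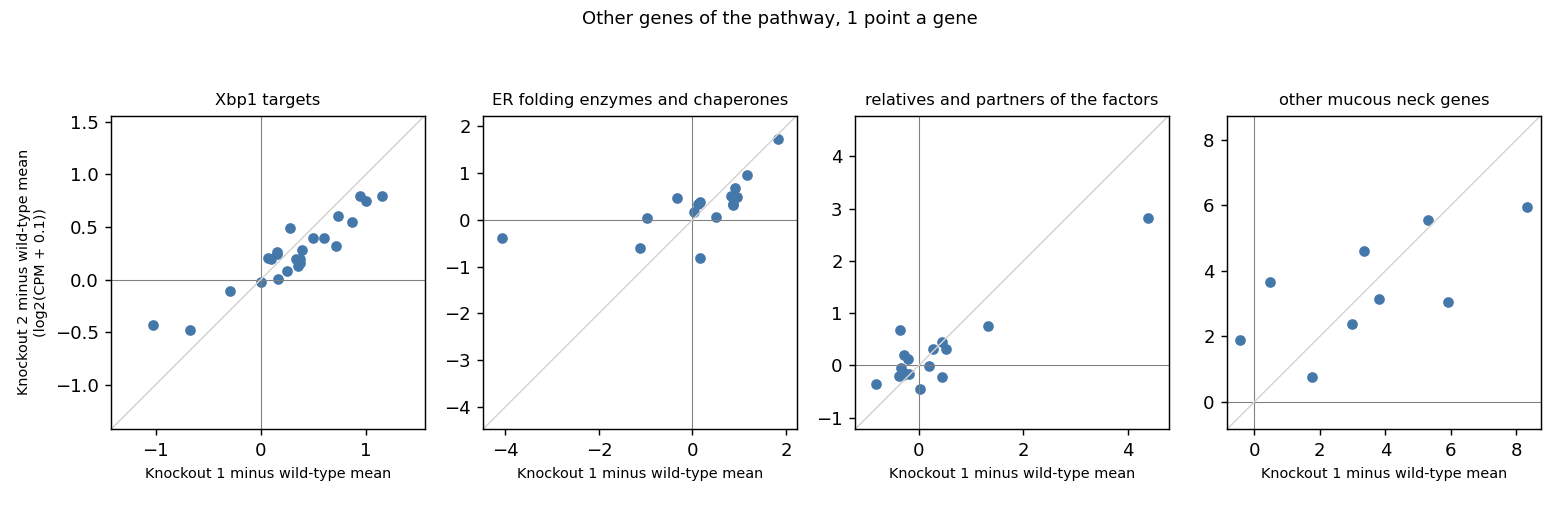
Each panel plots, for 1 gene list, the difference of knockout 1 (horizontal) and of knockout 2 (vertical) from the wild-type mean, in log2(CPM + 0.1), 1 point a gene, with the diagonal in grey, its own scale in each panel and Muc6 left out of the mucous neck panel. In the panel of Xbp1 targets 17 of 24 points are at positive values that do not overlap with wild type.

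The 2 membrane-bound bZIP genes split the knockout libraries. CREB3L1 and CREB3L4 sit in the ER membrane and are cut free in the Golgi, after which they act as transcription factors of secretory capacity. Creb3l1 (ENSMUSG00000027230.9, minus strand of chromosome 2 at 91982328 to 92024502) measured 97.3 and 103 CPM in the wild-type libraries versus 71.4 and 164 CPM in the knockouts. Knockout 1 was lower and knockout 2 higher than both wild-type libraries, with a log2 fold change of 0.24 ± 0.44 (SE, with n = 2 a group and an edgeR adjusted p = 0.842). Creb3l4 (ENSMUSG00000027938.11, minus strand of chromosome 3 at 90237500 to 90243512) measured 24 and 24.7 CPM in the wild-type libraries, 24.5 CPM in knockout 1 and 63.9 CPM in knockout 2. Knockout 1 lay between the wild-type libraries, and knockout 2 stood alone above them. The log2 fold change was 0.86 ± 0.50 (SE, edgeR adjusted p = 0.483), and it was 1.34 without knockout 1 and -0.05 without knockout 2. For Creb3l1 the same fits gave 0.66 and -0.54.

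Of the other family members, Creb3l3, a liver and intestinal factor gene, measured 1.86 and 0.781 CPM in the wild-type libraries versus 27.2 and 9.21 CPM in the knockouts (log2 fold change 3.77 ± 0.78, SE, with n = 2 a group and an edgeR adjusted p = 0.226, DESeq2 adjusted p = 6.9e-05). Creb3 had 44 and 37.5 CPM versus 58.4 and 50.7 CPM and Creb3l2 had 33.3 and 48.7 CPM versus 22.8 and 31.5 CPM, both without overlap and in opposite directions. Of the 20 relatives and partners of the factors 17 were tested, with a median log2 fold change of -0.02. Among the 17, 5 were higher and 5 lower without overlap, near the 26.3% and 23.8% of all genes tested.

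Spdef (ENSMUSG00000024215.13, minus strand of chromosome 17 at 27714352 to 27728955), the ETS factor gene of mucous cells, showed the same split. It measured 50.6 and 43.2 CPM in the wild-type libraries, 25.8 CPM in knockout 1 and 74 CPM in knockout 2. Both knockout values lay outside the wild-type range, on opposite sides of it. The log2 fold change was 0.09 ± 0.54 (SE, with n = 2 a group and an edgeR adjusted p = 0.960), with 0.61 without knockout 1 and -0.91 without knockout 2 (adjusted p = 0.0554 by edgeR). The epithelial ETS relative Ehf was higher in both knockout libraries instead, at 47.7 and 49.8 CPM versus 121 and 82.1 CPM (log2 fold change 1.06 ± 0.24, SE, DESeq2 adjusted p = 0.0141).

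Mucous neck genes outside the 10 also differed between the knockout libraries. A4gnt, whose enzyme caps gland mucin glycans, was at 56.7 CPM in knockout 1 and 283 CPM in knockout 2, against 70.3 and 82.8 CPM in wild type. The secreted protein gene Bpifb1 was at 57.8 and 528 CPM in knockout 1 and 2, against 20.3 and 85.1 CPM. In the list, 7 of 10 genes were higher in knockout without overlap, against 26.3% of all genes tested. Only Muc6 was lower, and A4gnt and Bpifb1 overlapped. Of the 7, Cftr, Aqp5, Wfdc2 and Glipr1 were at most at 5.08 CPM in wild type. The others of the 7, Tff2, Gkn3 and Dmbt1, were at least at 9.28 CPM there, and Muc6 at 345 and 313 CPM. Tff2, the spasmolytic polypeptide gene, was among the 7, at 1022 and 679 CPM versus 11709 and 7314 CPM. Of the 10, 5 were higher in knockout 2 than in knockout 1, as Spdef, Creb3l1 and Creb3l4 were. These 5 include the deleted gene Muc6, at 0 and 0.413 CPM, and Gkn3, at 613 and 731 CPM in knockout 1 and 2. The other 5, with Tff2 among them, were lower in knockout 2. The largest gap of the second kind was that of Dmbt1, a mucosal glycoprotein gene, at 2396 CPM in knockout 1 and 336 CPM in knockout 2 against 44.9 and 35.7 CPM in wild type. The part of gland composition in this split was not tested.

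**Figure D3:**
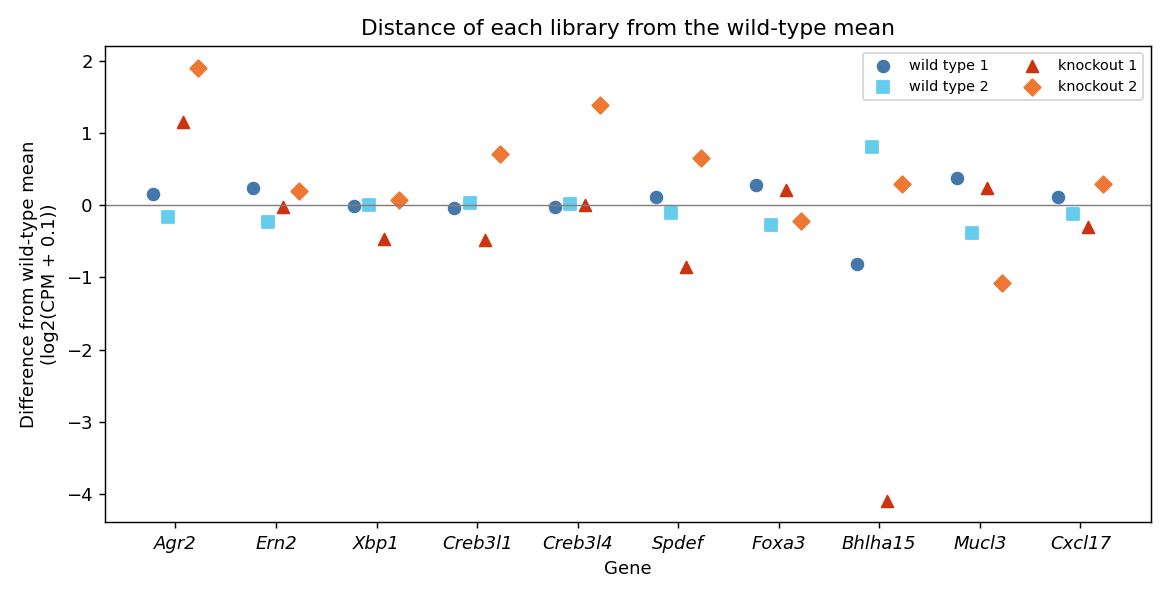
Difference of each library from the wild-type mean, in log2(CPM + 0.1) (vertical axis), for the 10 genes. Spdef and Creb3l1 have the knockout libraries on opposite sides of 0, at -0.85 and 0.66 and at -0.48 and 0.71, while Creb3l4 departs only in knockout 2, at 1.39.

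Foxa3 (ENSMUSG00000040891.6, minus strand of chromosome 7 at 19013284 to 19023538), the forkhead gene, measured 87.7 and 59.7 CPM in the wild-type libraries versus 83.9 and 62.5 CPM in the knockouts. The values followed the number of the library rather than the genotype, and the log2 fold change was -0.01 ± 0.27 (SE, with n = 2 a group and an edgeR adjusted p = 0.990). Foxa1, another forkhead gene of gut epithelium, had 120 and 111 CPM versus 157 and 158 CPM without overlap (0.44 ± 0.15, SE, edgeR adjusted p = 0.296), and Foxa2 overlapped. Per kilobase of exon, Foxa1 was at 36.1 and 33.5 CPM in wild type, in the range of Foxa3 at 43.1 and 29.3 CPM.

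Bhlha15 (ENSMUSG00000052271.7, plus strand of chromosome 5 at 144190286 to 144194441) varied most. It measured 9.60 and 29.7 CPM in the wild-type libraries versus 0.897 and 20.8 CPM in the knockouts. Knockout 1, with 20 counts (exact 95% Poisson interval 0.548 to 1.39 CPM, counting error only), was below the other libraries, while knockout 2 lay between the wild-type libraries. The log2 fold change was -0.85 ± 1.45 (SE, with n = 2 a group and an edgeR adjusted p = 0.829). It was -4.52 without knockout 2, 0.02 without knockout 1 and 0.17 without wild type 2, and with all libraries it was -1.78 under limma voom (adjusted p = 0.631).

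The chief cell genes Gif, Pgc and Chia1 had the same order of libraries, and Clps and Pga5 did not. The intrinsic factor gene Gif measured 631 and 2164 CPM in the wild-type libraries versus 42.5 and 1268 CPM in the knockouts, and of all genes with a mean of at least 10 CPM it was the one whose pattern lay nearest to that of Bhlha15. The measure was the root mean square difference of centred log2(CPM + 0.1) over the 4 libraries, which was 0.286, and Tmed6, a cargo receptor gene of the early secretory pathway, came next with 0.356. For each 10000 CPM of Gif there were 152 and 137 CPM of Bhlha15 in wild type but 211 and 164 CPM in knockout. Set against the pepsinogen gene Pgc, Bhlha15 was at 1.51 and 2.04 CPM per 10000 CPM in wild type and at 4.01 and 2.61 in knockout. From the lowest to the highest library Bhlha15 varied 33.2-fold and its ratio to Gif 1.54-fold. The small range of that ratio follows from Gif being the gene nearest in pattern. Whether chief cells were fewer in knockout 1 was not measured, and the part of their number in these values was not tested. Against the chitinase gene Chia1, which dropped further in knockout 1, the ratio was 7.50 and 9.01 in wild type but 110 and 15.7 in knockout. Against Clps the ratio was 4.81 and 9.57 in wild type but 67.3 and 14.9 in knockout.

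**Figure D4:**
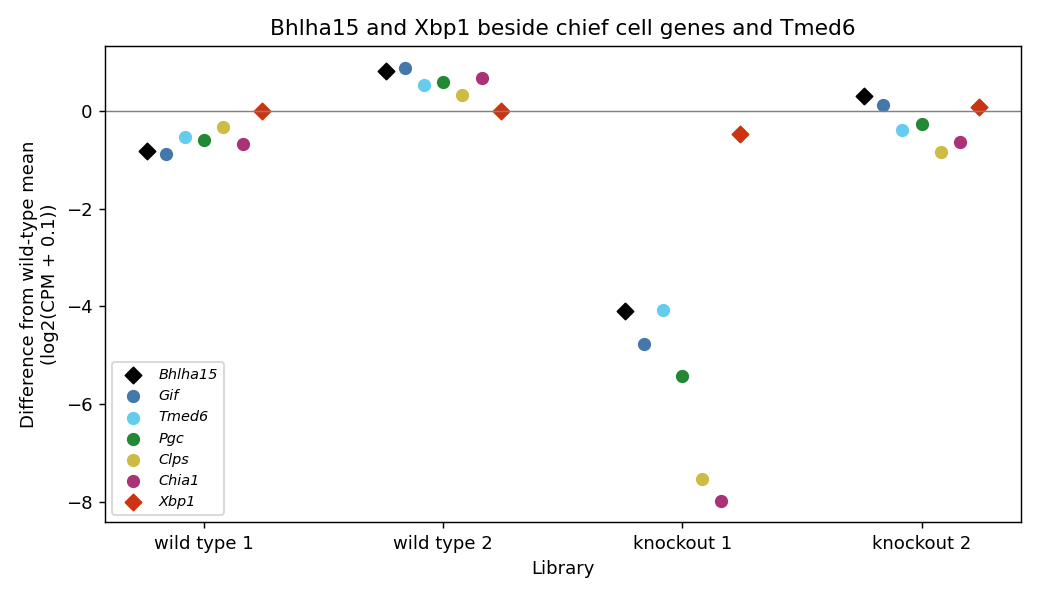
Difference of each library from the wild-type mean, in log2(CPM + 0.1), for Bhlha15 and Xbp1 (diamonds) and for 4 chief cell genes and Tmed6 (circles). In knockout 1 Bhlha15 lies at -4.09 and Xbp1 at -0.46, and in knockout 2 they lie at 0.30 and 0.07.

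Genes tied to MIST1 in secretory granules went in different directions. Of 5 tested, 2 were higher and 1 was lower without overlap, against 26.3% and 23.8% of all genes tested. Rab3d, a granule GTPase gene, measured 280 and 231 CPM in the wild-type libraries versus 345 and 309 CPM in the knockouts, with Bhlha15 at its lowest in knockout 1. The calcium pump gene Atp2c2 had 3.27 and 2.55 CPM versus 35.6 and 15.1 CPM (log2 fold change 3.11 ± 0.51, SE, with n = 2 a group and an edgeR adjusted p = 0.209). Cckar, a cholecystokinin receptor gene, had 41.3 and 89.8 CPM versus 0.762 and 39.1 CPM, with knockout 1 lowest as for Bhlha15. Of 10 pancreatic acinar genes, markers of another MIST1-rich tissue, 7 were too low to test. The list summed to between 37.6 and 117 CPM, mostly from the elastase gene Cela1 and the lipase gene Cel. Of 3 tested, 1 was higher and 2, Cel and Ptf1a, lower without overlap (26.3% and 23.8% of all genes tested). Cela1, the higher one, had 22.8 and 19.9 CPM in wild type versus 116 and 54.5 CPM in knockout. Of 7 salivary gland genes measured, 6 were at 0 in all 4 libraries. Plasma cells, a further site of high Xbp1, differed most between the wild-type libraries, where their 11 genes summed to 33.9 and 475 CPM while Xbp1 was at 324 and 325 CPM.

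The markers Mucl3 and Cxcl17 overlapped between the genotypes, unlike the neck genes Tff2 and Gkn3. Mucl3 (ENSMUSG00000073408.2, minus strand of chromosome 17 at 35635752 to 35643695), a mucin-like membrane protein gene, measured 6515 and 3820 CPM in the wild-type libraries versus 5874 and 2372 CPM in the knockouts. It was higher in the library numbered 1 of each genotype, and the log2 fold change was -0.33 ± 0.59 (SE, with n = 2 a group and an edgeR adjusted p = 0.838). Without knockout 1 it was -1.16, and without knockout 2 it was 0.14. The surface mucin gene Muc5ac had 12431 and 7345 CPM versus 5778 and 4872 CPM, also higher in the library numbered 1 of each genotype. The gene Sfta2 overlaps Mucl3 on the opposite strand at no more than 4.68 CPM.

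Cxcl17 (ENSMUSG00000060188.6, minus strand of chromosome 7 at 25400053 to 25412886), a chemokine gene of mucosal surfaces, measured 71.7 and 60.5 CPM in the wild-type libraries versus 53.7 and 80.5 CPM in the knockouts. Knockout 1 was below and knockout 2 above both wild-type libraries, as for A4gnt of the neck genes, and the log2 fold change was 0.02 ± 0.25 (SE, with n = 2 a group and an edgeR adjusted p = 0.979). An annotated antisense gene overlaps Cxcl17 and was not analysed here. Cxcl17, Ern2 and Foxa3 share chromosome 7 with Muc6, Ern2 being the nearest at 19.4 Mb.

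Per kilobase of exon, the order of levels in wild type ran from Mucl3 (2495 and 1463 CPM per kilobase) through Agr2 (294 and 237), Xbp1 (99.6 and 100.2) and Cxcl17 (94.2 and 79.5) to Creb3l1 (37.4 and 39.4), Foxa3 (43.1 and 29.3) and Ern2 (38 and 27.4), then Spdef (21.9 and 18.8), Creb3l4 (14.3 and 14.7) and Bhlha15 (2.75 and 8.51). Creb3l1, Foxa3 and Ern2 overlapped with their neighbours in this order, and the other neighbours were apart in both wild-type libraries. In knockout 2 Agr2 took the first place from Mucl3 (992 against 909 CPM per kilobase), and Xbp1 and Cxcl17 changed places. Creb3l4 moved from rank 9 to rank 6, and Foxa3 from ranks 5 and 6 in wild type 1 and 2 to rank 9. The order in knockout 1 differed from wild type 1 only in that Creb3l4 passed Spdef. Bhlha15 was last in all 4 libraries.

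The genes differed in their pattern over the libraries. Agr2 was high in both knockout libraries, and its nearest genes were the amino acid transporter gene Slc43a2 (33.5 and 26.5 CPM against 79.7 and 120 CPM), Cgref1 and Tcf19, with differences of 0.108, 0.132 and 0.171. Spdef, Creb3l1, Creb3l4, Xbp1, Cxcl17 and Bhlha15 were lower in knockout 1 than in knockout 2 by 0.54 to 4.39 log2 units. Arhgap24 and Ndnf were among the nearest to Spdef, those nearest to Creb3l1 were Kctd15, Bmf and Tmem56, and those nearest to Creb3l4 were Tspan33, Cpn1 and Ppic. Mucl3 and Foxa3 were lower in the library numbered 2 of each genotype. Foxa3 lay nearest to Nostrin, to the membrane mucin gene Muc1 (845 and 577 CPM against 800.2 and 580 CPM) and to Ctsb, and Mucl3 nearest to Sdcbp2, Vstm5 and Olfr1256. Ern2, whose values stayed within the wild-type range, had Pheta1 and Adora1 among its nearest. Xbp1 lay nearest to Chd6, Dnal4 and Usf2, and Cxcl17 to Zfp101, Cadps2 and Ninj1. With 4 libraries such matches describe these libraries only.

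The gap between the knockout libraries exceeded that between the wild-type libraries for 8 of the 10 genes, against 57.6% of all genes tested. Knockout 2 was above knockout 1 for 8 of 10, against 50.9%. Knockout 1 was below both wild-type libraries for 5 of 10 (39.2% of all genes), and knockout 2 above both for 6 of 10 (36.3%). The median size of the gap was 0.98 log2 units between the knockout and 0.28 between the wild-type libraries, against 0.33 and 0.24 over all genes tested.

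**Figure D5:**
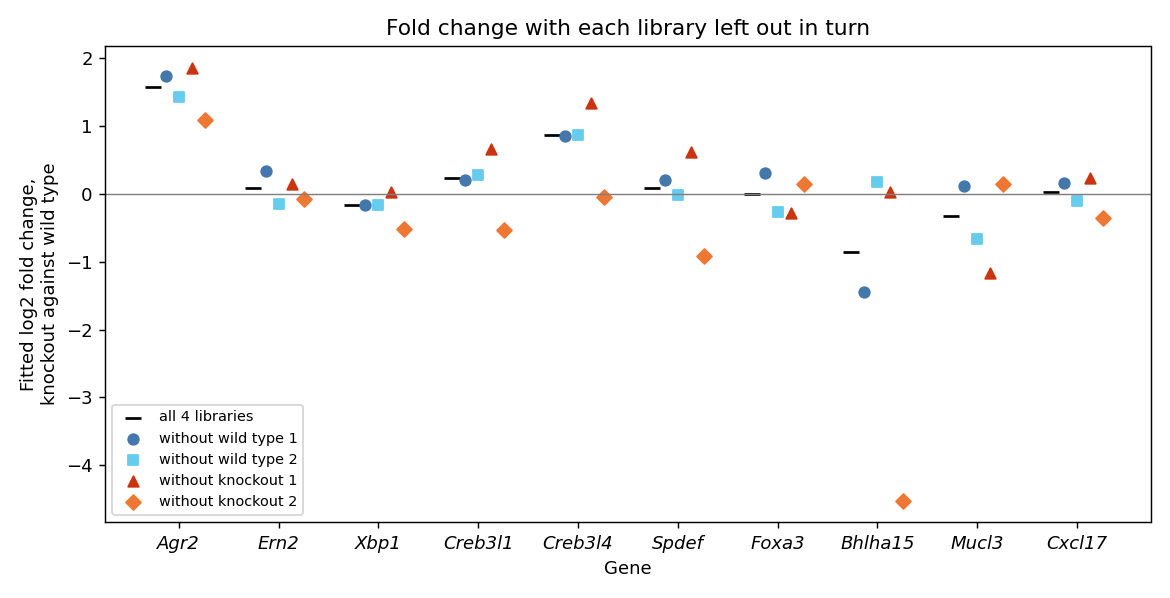
Fitted log2 fold change of knockout against wild type (vertical axis) for the 10 genes with all 4 libraries and with each library left out in turn. Agr2 stays between 1.09 and 1.86, while leaving out knockout 1 or knockout 2 puts Spdef at 0.61 or -0.91.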

How the data were processed

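RNA of corpus mucosa was extracted with a column kit and made into libraries with a stranded mRNA kit, per the labels' protocols. The build was mm10, per the submitters' processing notes, while the aligner, counter and use of strand were not given in the sources used here. The authors deposited expected counts per gene for 4 libraries (35.0% of nonzero values not whole, so a read may be shared between similar genes), which were rounded before testing. Symbols, positions and merged exon lengths came from GENCODE M21 by identifier without version (34652 of 34866 rows). Knockout was compared with wild type in edgeR 4.0.16 under R 4.3.3 (quasi-likelihood, classic deviance, robust, TMM, filterByExpr with a minimum of 10 counts, no covariate, Benjamini-Hochberg at 0.05), which was tested on simulated data. DESeq2 1.42.0, limma 3.58.1 (voom) and 12 further settings were alternatives. A standard error is the log2 fold change divided by the root of F. With 2 against 2, an exact permutation test cannot go below p = 0.33. Libraries held 20327745 to 27946423 counts.

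The genes, lists and tests were chosen with earlier results of these data known. Named were the 10 genes, a fixed set of relatives, ER and cell type genes, in each of 16 lists up to 3 genes without overlap and with the largest fold change, overlapping genes, and the 3 genes nearest in pattern (mean of at least 10 CPM), some of which are not reported here. A4gnt, Bpifb1, Dmbt1, Aqp5, Wfdc2, Glipr1, Edem1, Chia1, Pga5, Apoa1, Apoa4, Sst and the Y-linked genes fall outside this rule and were named after their values were seen. Counts of each knockout library alone against wild type were added after seeing the data.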

Additional observations from a re-analysis of the deposited data

How the results depend on the processing

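With 2 libraries a group, calls depended on the tool and on single libraries. edgeR called 0 genes with all libraries, 9 without a filter and 0 to 851 with 1 library left out (9 without knockout 1, 851 without knockout 2, where the lone knockout library was assumed to vary like the others), and DESeq2 called 1044. Of the 10 genes, DESeq2 called 1, Agr2, and the other 13 alternatives called 0. Agr2 had a log2 fold change of 1.53 to 1.66 over the 10 alternatives that kept all libraries. The median of the 10 genes went from 0.05 to between -0.22 and 0.21 with 1 library left out. Leaving out libraries turned the direction of 9 genes, with ranges of -0.35 to 0.24 for Cxcl17, -1.16 to 0.14 for Mucl3, -0.91 to 0.61 for Spdef, -0.15 to 0.34 for Ern2, -0.54 to 0.66 for Creb3l1, -0.05 to 1.34 for Creb3l4, -0.52 to 0.03 for Xbp1, -4.52 to 0.17 for Bhlha15 and -0.28 to 0.30 for Foxa3. Values near 0 also turned with all libraries in. Cxcl17 was at -0.0004 under relative log expression factors and under DESeq2, -0.02 without a filter and -0.001 under limma voom. Spdef was at -0.10 under limma voom. Foxa3 was at 0.04 with library sizes without the 20 most abundant genes and 0.02 under limma voom. The causes were not tested. With the sample number as a replicate block edgeR called 0 genes and 0 of the 10, and the turned values were -0.0018 for Cxcl17, -0.09 for Spdef and 0.00096 for Foxa3, and Bhlha15 was at -1.72 (adjusted p = 0.323). Deviations of same-numbered libraries from their group means correlated at 0.517 over genes, which with 2 pairs does not show that the numbers pair the samples.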

Other observations

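Genes of goblet cells and mucus outside the 10 included several at low levels in wild type and far higher ones in at least 1 knockout library. Of 14 tested, 8 were higher and 1, Muc5ac, was lower without overlap, against 26.3% and 23.8% of all genes tested, with a median log2 fold change of 1.33, and edgeR called none while DESeq2 called 3 higher. Fcgbp, a mucus protein gene, had 1.05 and 1.09 CPM in the wild-type libraries and 273 and 48.3 CPM in the knockouts. Pigr, the receptor gene that carries antibodies across epithelium, had 32 and 16.9 CPM versus 596 and 267 CPM, and the trefoil gene Tff3 had 0.565 and 0.781 CPM versus 10.6 and 1.69 CPM. Taken alone against both wild-type libraries, knockout 1 had 11 of the 14 higher and knockout 2 had 8 (5767 and 5101 of all 14067 genes tested).

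Spdef was at its lowest, 25.8 CPM, in knockout 1, where Fcgbp and Tff3 were at their highest. Of 9 surface pit cell genes, 5 were lower and 1 higher without overlap, against 23.8% and 26.3% of all genes tested. Their summed level was 116016 and 77690 CPM in the wild-type libraries versus 66124 and 52359 CPM in the knockouts. Of 8 antral and duodenal genes tested, 5 were higher and 2 lower without overlap (26.3% and 23.8% of all genes tested). Pdx1, 1 of the higher, was at 59 and 2.52 CPM in knockout 1 and 2. Of 6 macrophage and neutrophil genes tested, 1, Cd68, was lower without overlap, against 23.8% of all genes tested. The list summed to between 10.5 and 44.1 CPM in the 4 libraries.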
